A study of Neurospora crassa with 12 samples.

Results

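In the wild-type (WT) strain of *Neurospora crassa*, 89 of the 9730 genes in the count table had a high transcript level on Avicel + leucine and a much lower one on both Avicel and Avicel + histidine. A gene was taken as a member when its mean in the 2 WT cultures on leucine was at least 20 CPM (counts scaled to a library total of 1000000) and, after adding 1 CPM to each group mean, at least 6 times the WT mean on Avicel and at least 6 times the WT mean on histidine. The genes were thus chosen by their levels in the 6 WT libraries, and their differences in WT are given as a description without a test. The 6 columns of the *clr-5* deletion strain (Δ*clr-5*) played no part in the choice, and changes between media within Δ*clr-5* were tested.

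The WT strain was FGSC 2489, and Δ*clr-5* is a stock-centre strain in which NCU05383, a Zn2Cys6 transcription factor gene, is deleted, so the mutant is 1 strain. Mycelium grown in glucose was washed and moved to Vogel's salts with 2% Avicel, a microcrystalline cellulose, or to Vogel's salts without their nitrogen source but with 2% Avicel and 50 mM histidine or 50 mM leucine as the only nitrogen source. The sample labels give 8 h of induction and the study's methods a shorter time. There were 6 groups (WT and Δ*clr-5* on each of the 3 media), each with 2 independent cultures and so 12 libraries of total RNA from mycelium. The comparison with Avicel thus changes the nitrogen source as a whole, whereas the comparison with histidine sets one amino acid against another.

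Leucine taken up by a fungus can be incorporated into protein or broken down in the mitochondrion. Breakdown begins with transamination to the keto acid, passes through isovaleryl-CoA and 3-methylcrotonyl-CoA, and ends in acetyl-CoA and acetoacetate. Growth on compounds that yield acetyl-CoA uses the glyoxylate cycle, whose own enzymes are isocitrate lyase and malate synthase. *N. crassa* is also known for cross-pathway control, in which imbalance or shortage of an amino acid raises the genes for synthesis of many other amino acids. On poor nitrogen supply this fungus forms protoperithecia, the female structures of its sexual cycle, and the A and a mating types each express their own pheromone precursor.

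The table held 16797962 to 20381308 counts per library. The deleted gene *clr-5* (NCU05383, chromosome II from 1471066 to 1475393 of the NC12 assembly) was at 17.9 to 56.1 CPM in the WT libraries and 1.54 to 3.09 CPM in the Δ*clr-5* libraries, lower in every mutant library. No read was counted for *matA-1*, a regulator specific to mating type A, in any Δ*clr-5* library, against 7.30 to 112 CPM in WT, so the strains differed in the A mating-type gene as well as in *clr-5*, and every difference between strains below holds both. The cultures of Δ*clr-5* on Avicel stood apart from each other, with 8.36% of the 8805 tested genes differing by more than 2 times between them (CPM plus 1). Calls or values of some genes changed without 1 of them, and for part of these genes the values without it are given. Since RNA came from whole mycelium, a transcript that is lower per cell cannot be told apart from fewer cells of a type that carries it.

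In WT on leucine the members ranged from 20.9 to 19259 CPM, with a median of 251 CPM. Per kilobase of gene span the highest levels were 8891 CPM for *ccg-4*, the pheromone precursor gene of mating type A, 3292 CPM for *pdx-1*, which encodes the synthase subunit for vitamin B6, and 2531 CPM for *nmt-1*, whose relative in fission yeast makes the pyrimidine part of thiamine. Together the members took 7.33% and 6.77% of all counts in the WT cultures on leucine and 0.334% to 0.435% in the other WT cultures. In Δ*clr-5* they took 4.49% and 3.79% on leucine, 1.35% and 0.674% on Avicel, and 0.347% and 0.345% on histidine. Without *ccg-4* the shares on leucine were 5.27% and 4.98% in WT, so the gap between the strains narrowed but did not close.

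The median WT fold (plus 1 CPM) was 15.0 over Avicel and 10.5 over histidine. The members just inside the thresholds were NCU03118 (6.01 times Avicel), the aspartyl-tRNA synthetase gene NCU00915 (6.02 times histidine) and *mig-10* (6.12 times histidine). Just outside lay *mb-3* (5.96 times histidine), *mb-2* (5.91 times Avicel) and NCU07896 (5.91 times Avicel). A symbol was available for 27 members and a product name for 8, among them *arg-12* and *cyt-20*, which also have a symbol. The 33 genes with either were placed in a role group, whereas 56 were assigned no role. Product names came from the study's supplement alone, where 15 of the 89 members had any line. Having no role here thus does not mean that a gene is uncharacterised.

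**Figure D1:**
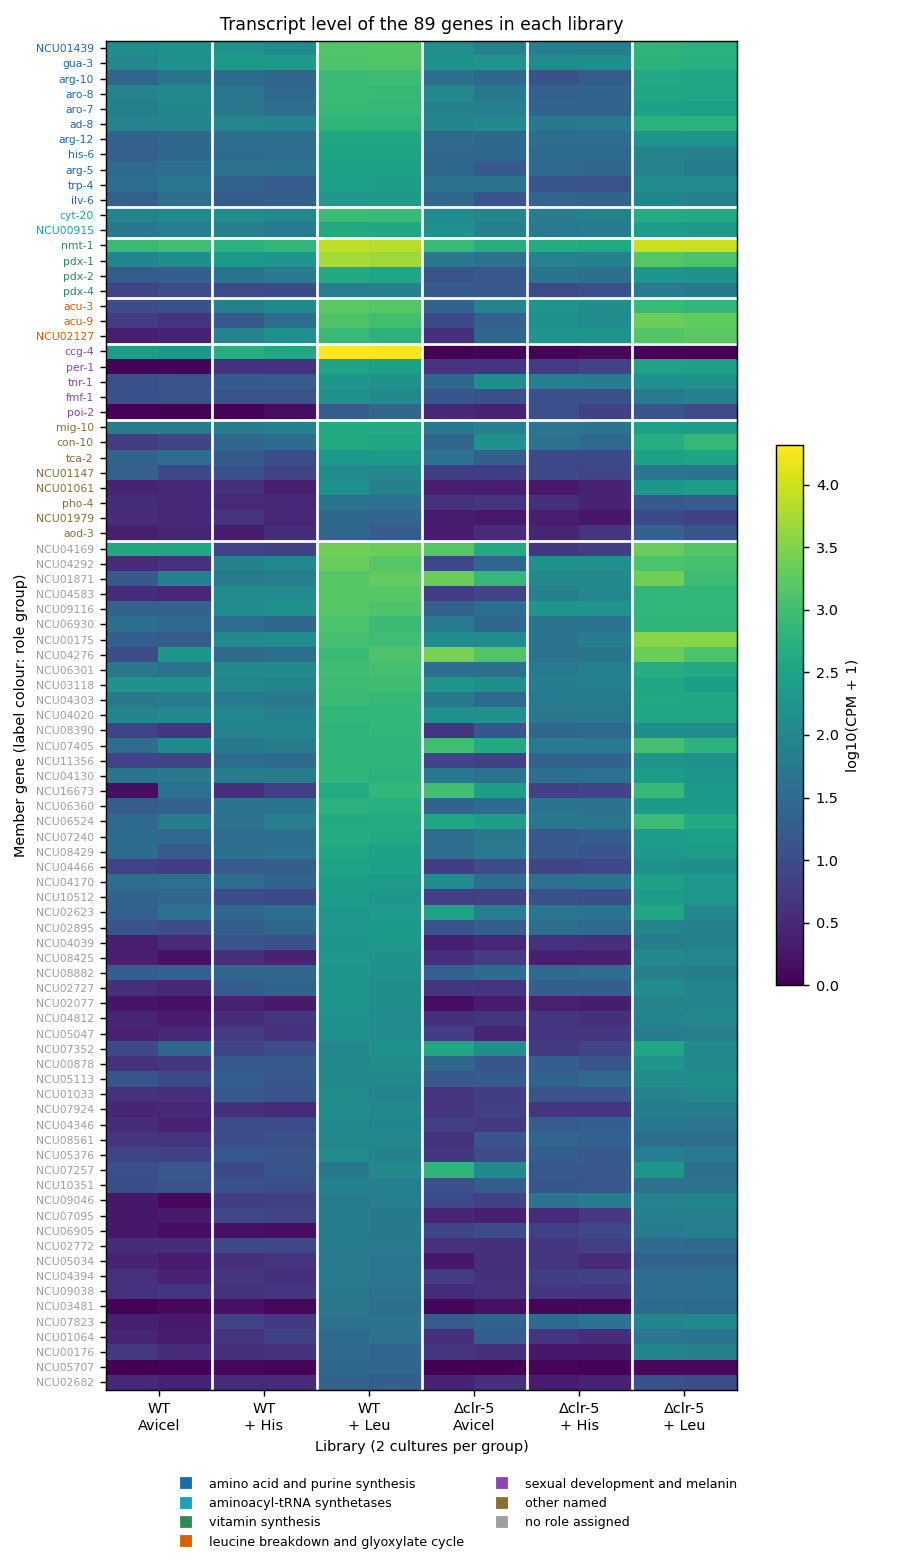
Level of each of the 89 genes (rows, coloured by role group) in each of the 12 libraries (columns, 2 cultures per group), as log10(CPM + 1). Every row is brightest in WT on leucine against the other WT columns, because the genes were chosen so, and most rows are also bright in Δclr-5 on leucine, except ccg-4 and NCU05707.

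Most of these genes responded to leucine without *clr-5*. In Δ*clr-5*, 77 of the 89 members were higher on leucine than on Avicel, against 19.5% of all tested genes, and none was lower, against 17.8% (edgeR's quasi-likelihood test, adjusted p under 0.05 and a log2 fold change of at least 0.5). The largest response was that of NCU01061, annotated as a dienelactone hydrolase, with 1.33 and 1.27 CPM on Avicel and 182 and 235 CPM on leucine. Against histidine, 85 of the 89 were higher on leucine (29.4% of all tested genes) and none was lower (23.6%). Both comparisons share the Δ*clr-5* cultures on leucine, and 74 members were higher in both, against 10.3% of all tested genes. The median log2 fold change of the members was 2.75 over Avicel (0.02 for all tested genes) and 3.02 over histidine (0.04 for all tested genes). By unadjusted p under 0.05, 1 member was lower on leucine than on Avicel and 0 were lower than on histidine, and DESeq2 called 0 lower in either comparison.

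All 89 passed the filter on low counts when the 12 libraries were used, and 87 passed it in the 6 Δ*clr-5* libraries alone. The exceptions were *ccg-4* and NCU05707, which were at or near 0 counts in the mutant. Both were thus tested only through their WT counts, and NCU05707 is 1 of the 77 calls. Cultures of Δ*clr-5* on Avicel differed by more than 2 times for 25 members. Of these, 15 were higher on leucine than on Avicel (19.5% of all tested genes). Leaving out either discordant Avicel culture removed none of the 77 calls and gave 79 (without Δ*clr-5* culture 1) and 78 (without culture 2) members higher on leucine than on Avicel. The members that were not higher on leucine than on Avicel were NCU00915, NCU04169, NCU01871, NCU04276, NCU07405, NCU16673, NCU06524, NCU02623, NCU07352, NCU07257, *ccg-4* and *tnr-1*. Those not higher on leucine than on histidine were NCU08561, NCU05707, *poi-2* and *ccg-4*, so *ccg-4* was in neither set of calls.

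**Figure D2:**
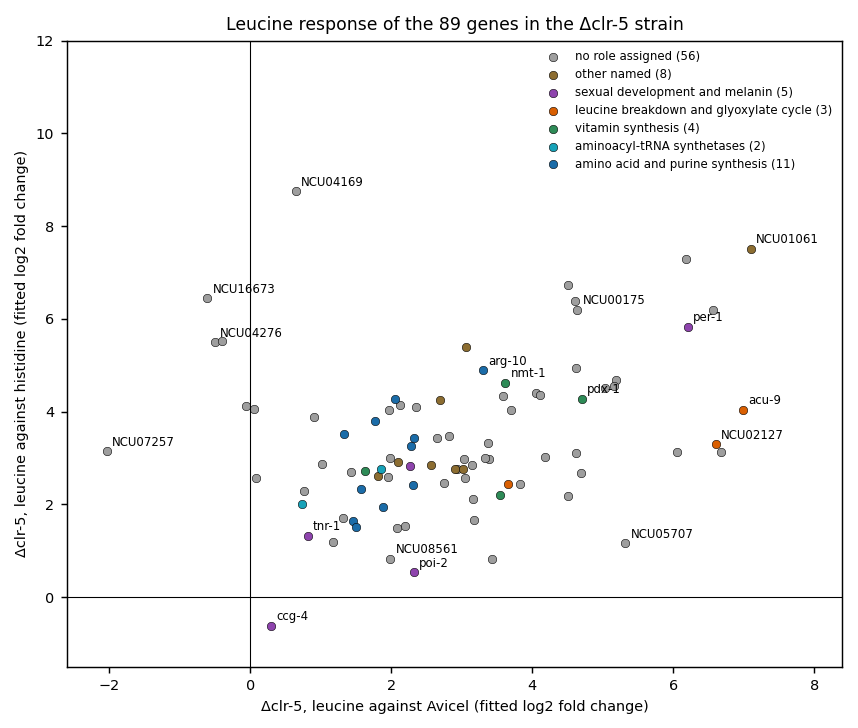
Fitted log2 fold change in Δclr-5 of each of the 89 genes on leucine against Avicel (horizontal) and against histidine (vertical), coloured by role group. Most points lie above 0 on both axes, while NCU04169, NCU16673, NCU04276 and NCU07257 are high against histidine only and ccg-4 lies near 0 on both.

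The level reached on leucine was nevertheless lower in Δ*clr-5* than in WT for most members. On the fitted log2 scale, where the median of all tested genes was 0.03 (0.29 on unscaled CPM), the median of the members was -1.05, with quartiles at -1.47 and -0.28. For 47 members the fitted difference was -1 or below (6.21% of all tested genes) and for 2 members, the neighbours NCU00175 and NCU00176, it was 1 or above (7.3%). The other 40 lay between these values. With CPM scaled by TMM, both Δ*clr-5* cultures lay below both WT cultures for 63 members (34.4% of all tested genes) and above both for 8 members (36.6%). Those 8 were *acu-9*, NCU02127, NCU00175, NCU00176, NCU07823, *con-10*, *tca-2* and NCU01061, and the remaining 18 overlapped. The WT cultures on leucine took part in choosing the members, so genes that happened to be high in them are favoured and no test is given for these differences.

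**Figure D3:**
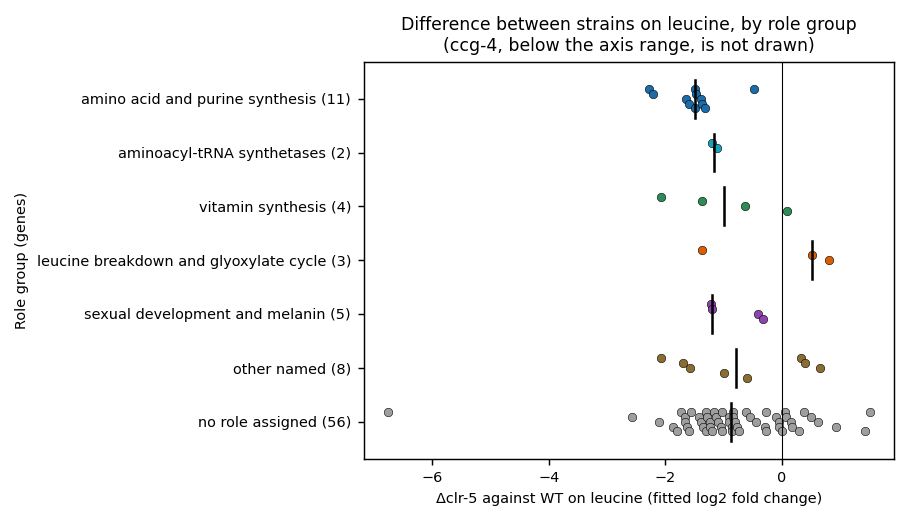
Fitted log2 difference between Δclr-5 and WT on leucine (horizontal, 0 where the strains were equal) of single members (points) in each role group (rows), with the group median as a bar. Genes for synthesis of amino acids and purines all lie below 0, and 2 of the 3 genes of leucine breakdown and the glyoxylate cycle lie above it; ccg-4 is off the scale to the left.

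Genes for synthesis of amino acids and purines formed the largest role group, with 11 members. In Δ*clr-5* all 11 were higher on leucine than on Avicel (19.5% of all tested genes) and than on histidine (29.4%). Their median log2 fold changes were 1.88 and 3.26. All 11 stayed below WT on leucine without overlap (34.4% of all tested genes). Fitted differences ranged from -0.47 for *ad-8* to -2.28 for *arg-5*. The WT cultures on leucine took part in choosing these genes, and the role group was set after the values were seen. The argininosuccinate lyase gene *arg-10* (NCU08162, chromosome VII from 3592420 to 3594494) was at 886 and 892 CPM in WT on leucine, 25 and 44.9 CPM on Avicel, and 33.1 and 24.2 CPM on histidine. In Δ*clr-5* it was at 408 and 349 CPM on leucine, 38.5 and 27.3 CPM on Avicel, and 10.5 and 17.7 CPM on histidine. The mutant thus started from a similar level on Avicel and reached a lower one on leucine, with a log2 fold change over Avicel of 3.30 (standard error 0.37, adjusted p = 8e-05).

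The other arginine genes behaved alike in direction. *arg-5*, for acetylornithine aminotransferase, was at 294 and 297 CPM in WT and 80.2 and 65.3 CPM in Δ*clr-5* on leucine, and the latter was 1.51 above Avicel (standard error 0.28, adjusted p = 0.00171). *arg-12*, for ornithine carbamoyltransferase, was at 365 and 386 CPM in WT and 175 and 168 CPM in the mutant. In the aromatic pathway, the DAHP synthase genes *aro-7* and *aro-8*, which control its entry, were at 771 and 740 CPM and at 825 and 762 CPM in WT on leucine, against 294 and 285 CPM and 391 and 345 CPM in Δ*clr-5*. *trp-4*, which acts in tryptophan synthesis, was at 269 and 262 CPM in WT and 125 and 130 CPM in Δ*clr-5*. No culture of one strain reached the range of the other for any of these genes.

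NCU01439, annotated as a D-3-phosphoglycerate dehydrogenase of serine synthesis, had the highest mean of this group in WT on leucine, at 1387 and 1420 CPM, against 645 and 569 CPM in Δ*clr-5*. Histidine synthesis was represented by *his-6*, which fell furthest short of WT after *arg-5*, with 320 and 323 CPM in WT and 90.2 and 76.2 CPM in Δ*clr-5* (fitted difference -2.21). *ilv-6*, for the regulatory subunit of acetolactate synthase and so the one member in branched-chain synthesis, was at 208 and 221 CPM in WT and 94.8 and 74.5 CPM in the mutant. Among the purine genes, *gua-3* was at 1363 and 1382 CPM in WT and 619 and 546 CPM in Δ*clr-5*. *ad-8*, for adenylosuccinate synthase, came closest to WT, with 669 and 641 CPM in WT and 573 and 558 CPM in the mutant. On histidine, 7 of the 11 were lower than on Avicel in Δ*clr-5* (27.6% of all tested genes) and none was higher (27.2%). The lowest was *aro-8* (log2 fold change -2.21, adjusted p = 0.000272). The call of NCU01439 was lost without Δ*clr-5* culture 1 on Avicel (-0.39) and without culture 2 on histidine (-0.94). That of *gua-3* was lost with library size alone (-0.40) and without Δ*clr-5* culture 1 on histidine (-0.72).

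Both aminoacyl-tRNA synthetase genes among the members showed the same order of levels. *cyt-20*, for the valyl enzyme (NCU01965), was at 860 and 851 CPM in WT on leucine and 454 and 432 CPM in Δ*clr-5*, where it was 1.86 above Avicel (standard error 0.22, adjusted p = 8.1e-05). NCU00915, for the aspartyl enzyme, was at 414 and 391 CPM in WT and 233 and 209 CPM in Δ*clr-5* on leucine. Its mutant cultures on Avicel were discordant at 151 and 73.8 CPM, and the difference of 0.73 did not pass the test (adjusted p = 0.0952), although it did without Δ*clr-5* culture 1 on Avicel (1.46, adjusted p = 0.000148), against 0.25 (adjusted p = 0.356) without culture 2, and with scaling by library size alone (0.98, adjusted p = 0.0177).

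The 4 genes named for vitamin synthesis were all higher on leucine than on both other media in Δ*clr-5* (10.3% of all tested genes). Their levels relative to WT differed widely. *nmt-1* (NCU09345, chromosome II from 4177546 to 4180504) was at 7848 and 7129 CPM in WT and 9752 and 9304 CPM in Δ*clr-5* on leucine, a fitted difference of 0.09 with overlap of the scaled cultures. On histidine it was lower in the mutant without overlap, at 445 and 410 CPM against 565 and 697 CPM in WT, and on Avicel it was at 828 and 492 CPM against 826 and 995 CPM. *pdx-1* (NCU06550), by contrast, was at 5132 and 4723 CPM in WT and only 1504 and 1283 CPM in the mutant, a fitted difference of -2.08. It was also lower in the mutant on Avicel (50.0 and 42.1 against 93.4 and 141 CPM) and on histidine (80.6 and 78.7 against 226 and 179 CPM).

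Although lower throughout, *pdx-1* kept a large response in Δ*clr-5*, with a log2 fold change of 4.70 over Avicel (standard error 0.29, adjusted p = 1.04e-06) and 4.27 over histidine. *pdx-2* (NCU06549), which encodes the glutaminase partner of the *pdx-1* product, lies next to *pdx-1* on chromosome IV with 809 bp between the annotated genes. It was at 401 and 363 CPM in WT and 187 and 165 CPM in Δ*clr-5* on leucine, and 3.54 above Avicel in the mutant (adjusted p = 3.75e-07). Unlike *pdx-1*, it was also called higher on histidine than on Avicel in the mutant (1.34, adjusted p = 5.84e-05); a difference between these neighbours was not tested. *pdx-4* was at 70.0 and 75.8 CPM in WT and 58.3 and 54.4 CPM in Δ*clr-5*, a fitted difference of -0.63.

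Leucine breakdown and the glyoxylate cycle gave the opposite picture for 2 of 3 members. NCU02127, annotated as the beta subunit of methylcrotonoyl-CoA carboxylase (chromosome I from 1156535 to 1158645), was at 1.33 and 1.69 CPM on Avicel, 85.2 and 145 CPM on histidine, and 839 and 621 CPM on leucine in WT. The mutant had it at 2.94 and 25.4 CPM on Avicel, 176 and 167 CPM on histidine, and 1434 and 1627 CPM on leucine. Both mutant cultures on leucine were above both WT cultures, and the response over Avicel was 6.6 (standard error 0.79, adjusted p = 0.00016), or 5.79 and 8.72 without culture 1 or 2 on Avicel.

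*acu-9*, for malate synthase (NCU10007, chromosome I), followed the same order, at 1340 and 1029 CPM in WT and 2242 and 1817 CPM in Δ*clr-5* on leucine. On histidine it was at 14.8 and 35.2 CPM in WT and 148 and 125 CPM in the mutant, again without overlap. *acu-3*, for isocitrate lyase (NCU04230, chromosome V), lay the other way on leucine, at 1701 and 1523 CPM in WT and 803 and 681 CPM in Δ*clr-5*, although both genes act in the glyoxylate cycle. On Avicel *acu-3* was higher in the mutant (22 and 83.4 against 9.34 and 11.4 CPM), and its response to leucine there was 3.65 (standard error 0.49, adjusted p = 0.000301), or 3.03 and 4.78 without culture 1 or 2 on Avicel. All 3 genes were also higher on histidine than on Avicel in Δ*clr-5* (27.2% of all tested genes). The log2 fold changes ranged from 1.22 for *acu-3* to 3.30 for NCU02127. The call of *acu-3* (adjusted p = 0.0396) was lost without Δ*clr-5* culture 1 on Avicel (0.60, adjusted p = 0.0591), without either Δ*clr-5* culture on histidine (1.07 and 1.36), without WT culture 2 on leucine, and with the mutant libraries alone.

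**Figure D4:**
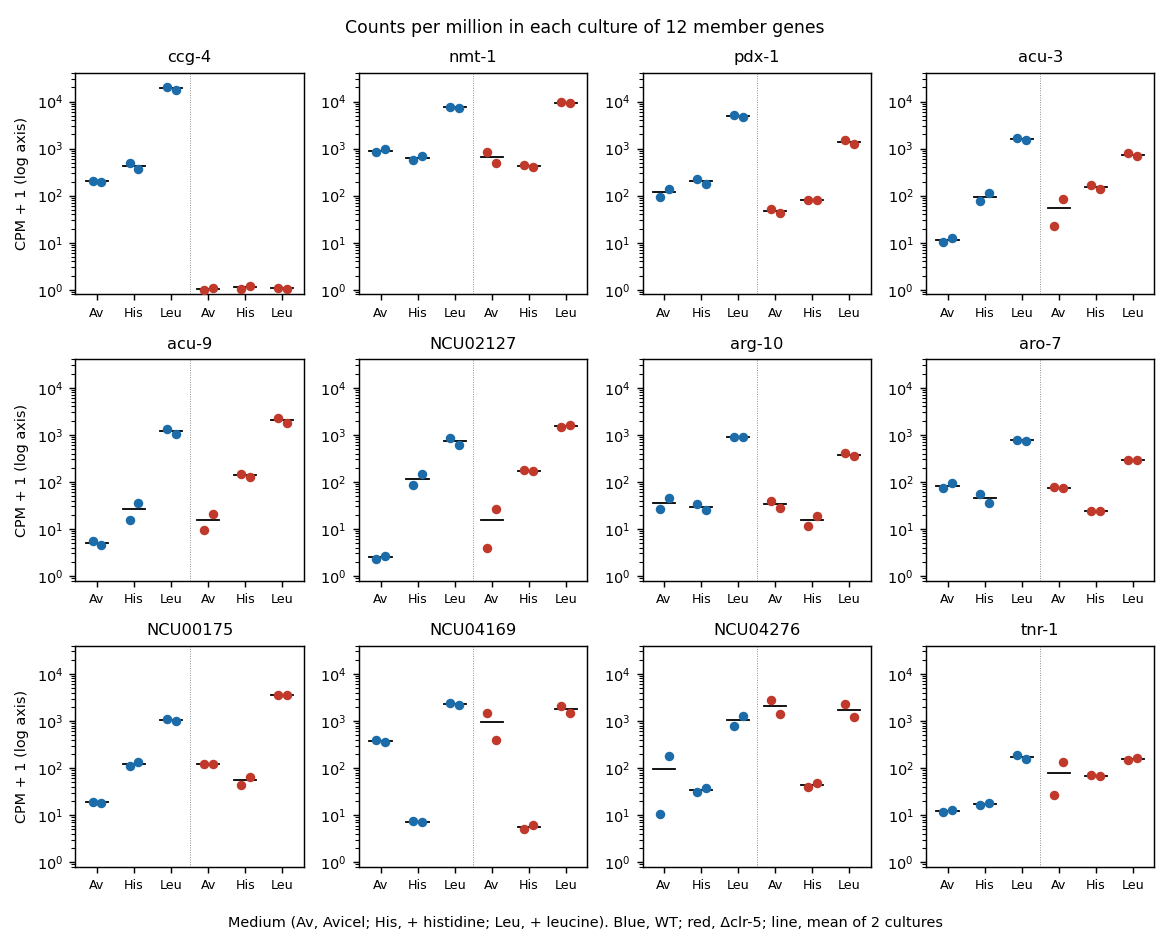
CPM + 1 on a log axis in each culture (points) of 12 member genes in WT (blue) and Δclr-5 (red) on Avicel, histidine and leucine, with the mean of 2 cultures as a line. ccg-4 is at the bottom of the axis in all mutant cultures, acu-9, NCU02127 and NCU00175 are higher in the mutant than in WT on leucine, and NCU04169 and NCU04276 are already high in the mutant on Avicel.

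The sexual development and melanin genes split into one that was near 0 in the mutant and others that responded to leucine or lay close to WT. *ccg-4* (NCU02500, chromosome I from 2531832 to 2533997) was at 20642 and 17876 CPM in WT on leucine, 208 and 193 CPM on Avicel, and 486 and 368 CPM on histidine. In Δ*clr-5* it was at 0.228 CPM or below in every library, with 3 counts in all on leucine against 678784 in WT, a ratio of 250505 (exact 95% interval 85718 to 1214720, counting error only). *mfa-1*, which encodes the pheromone precursor of mating type a, was at 2.29 to 6.20 CPM in the WT libraries. The mutant had it at 1052 and 392.1 CPM on Avicel, 1109 and 1490 CPM on histidine, and 28022 and 29820 CPM on leucine. That was 5.07 above Avicel (adjusted p = 2.19e-05), or 6.08 and 4.48 without culture 1 or 2 on Avicel.

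Each strain thus had its own pheromone transcript at its highest level on leucine. With *matA-1* at 0 counts in the mutant, an effect of *clr-5* on *ccg-4* cannot be told apart from the mating type of the strain. Of the 6 mating-type markers looked for, 5 were found in the table. *matA-2* and *matA-3* also had 0 counts in all 6 Δ*clr-5* libraries. They were near 0 in WT too, at 0.545 CPM or below and 1.25 CPM or below, so their absence adds little. The summed level of these markers was 20757 and 17962 CPM in WT and 28022 and 29820 CPM in Δ*clr-5* on leucine, and 205 to 1490 CPM elsewhere.

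The polyketide synthase gene *per-1* (NCU03584, chromosome V from 1714456 to 1721951) is needed for the dark pigment of the perithecium. With CPM scaled by TMM, all 5 genes of this group lay below WT on leucine without overlap (34.4% of all tested genes). Their fitted differences were -0.33 or lower. By unscaled CPM on leucine, *per-1* was nearly as high in the mutant (304 and 278 CPM) as in WT (331 and 281 CPM). It was at 0.116 and 0.117 CPM on Avicel in WT but 3.42 and 3.39 CPM in Δ*clr-5*, so its rise over Avicel began from a higher level in the mutant (6.20, standard error 0.22, adjusted p = 3.9e-08). *tnr-1*, for a reductase of the same kind of melanin, was at 187 and 158 CPM in WT and 149 and 160 CPM in Δ*clr-5* on leucine. On Avicel it was at 26.2 and 131 CPM in Δ*clr-5* against 10.5 and 11.9 CPM in WT, and its difference of 0.81 between leucine and Avicel in the mutant did not pass the test (adjusted p = 0.213). Without Δ*clr-5* culture 2 on Avicel it did (2.26, adjusted p = 3.27e-07), whereas without culture 1 it was 0.11 (adjusted p = 0.594). Its call over histidine (1.32, adjusted p = 0.0426) was lost with library size alone and without any 1 culture other than those of Δ*clr-5* on Avicel (adjusted p = 0.0574 to 0.152).

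*fmf-1*, a gene for female and male fertility, was at 147 and 114 CPM in WT and 57.9 and 76.6 CPM in Δ*clr-5* on leucine, and rose 2.27 over Avicel in the mutant (adjusted p = 1.11e-05). *poi-2*, a further gene of sexual development, was at 17 and 25.3 CPM in WT on leucine and 0.523 CPM or below on the other media. In Δ*clr-5* it was at 12.7 and 9.18 CPM on leucine and 10.5 and 6.21 CPM on histidine, and the difference of 0.54 between them did not pass the test (adjusted p = 0.242). It was called higher than on Avicel on both amino acids, so in the mutant it did not separate leucine from histidine.

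Among the remaining named genes, all 8 were higher on leucine than on Avicel and than on histidine in Δ*clr-5* (10.3% of all tested genes). NCU01061 was at 145 and 76.2 CPM in WT and 182 and 235 CPM in the mutant on leucine, and at 2.92 CPM or below on the other media in both strains; its response over Avicel was 7.10 (standard error 0.42, adjusted p = 1.58e-06). The catechol dioxygenase gene NCU01979, by contrast, was at 26.3 and 24.3 CPM in WT and 8.29 and 5.99 CPM in Δ*clr-5*. NCU01147, annotated as a tyrosine decarboxylase, was at 119 and 113 CPM against 47.8 and 45.6 CPM. *pho-4*, a phosphate permease gene, was at 46.8 and 41.4 CPM against 15.6 and 17 CPM. *aod-3*, an alternative oxidase gene, was at 26.6 and 16.5 CPM against 21.6 and 12.3 CPM, so its strains overlapped. *mig-10* was lower in the mutant (fitted difference -0.99) and *tca-2* higher (0.33).

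*con-10*, a gene of conidiation (asexual sporulation), was at 412 and 380 CPM in WT and 491 and 759 CPM in Δ*clr-5* on leucine. On Avicel it was at 4.64 and 7.07 CPM in WT and 25 and 148 CPM in Δ*clr-5*, and its response in the mutant was 2.69 (standard error 0.60, adjusted p = 0.00591), or 1.94 and 4.33 without culture 1 or 2 on Avicel. Of the 8 conidiation markers looked at, *con-10* and *ccg-1* were higher on leucine than on Avicel in Δ*clr-5* (19.5% of all tested genes). Lower were *eas*, *con-8*, *con-13*, *fl* and *acon-3* (17.8%). These 7 calls held without either culture on Avicel, but their sizes moved, that of *eas* from -5.76 to -6.63 without culture 1 and -3.24 without culture 2, and *con-6* was called higher without culture 2 (4.09). None was at 0 counts in a group. Their summed level was 731 to 1168 CPM in WT on Avicel, 6788 to 11661 CPM on histidine, and 3981 to 4236 CPM on leucine. In Δ*clr-5* it was 3898 and 39205 CPM on Avicel, 75035 to 88434 CPM on histidine, and 14644 to 16125 CPM on leucine, most of it from *eas*, the hydrophobin of the conidial surface, on Avicel and histidine. These levels move with the strain and with the discordant Avicel cultures, and their part in the results for the members was not tested.

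Among the 56 members with no assigned role, 47 were higher on leucine than on Avicel in Δ*clr-5* (19.5% of all tested genes). Over histidine, 54 were higher (29.4%). Of all 89 members these counts were 77 and 85. NCU04583 (chromosome V from 1608278 to 1609923) was at 1561 and 1546 CPM in WT on leucine, 2.73 and 2.05 CPM on Avicel, and 119 and 118 CPM on histidine. The mutant had it at 695 and 688 CPM on leucine, 4.75 and 6.99 CPM on Avicel, and 76.8 and 97.7 CPM on histidine, so the media kept their order at a lower top level (6.68 over Avicel, standard error 0.23, adjusted p = 3.9e-08). NCU04292 showed the largest WT fold over Avicel (489 times), with 2116 and 1509 CPM in WT and 1260 and 1142 CPM in Δ*clr-5* on leucine. NCU02077 and NCU03481 were nearly silent off leucine in both strains, at 1.48 CPM or below, and were at 174 and 140 CPM and at 51.6 and 38.5 CPM in WT on leucine, against 89 and 86.6 CPM and 33.1 and 30.2 CPM in the mutant.

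The lowest levels relative to WT, after that of *ccg-4*, belonged to NCU05707 and NCU08390, both of this kind. NCU05707 (chromosome III from 584541 to 585538) was at 27.2 and 25.5 CPM in WT on leucine and at 0.271 CPM or below on the other WT media. In Δ*clr-5* it had 11 counts over both leucine cultures against 927 in WT, a ratio of 93.3 (exact 95% interval 51.9 to 188, counting error only), and 0 counts on Avicel. It was called higher on leucine than on Avicel in the mutant, a call that rests on those few counts. NCU08390 was at 651 and 707 CPM in WT and 142 and 130 CPM in Δ*clr-5* (fitted difference -2.58), and NCU11356 at 635 and 632 CPM and at 185 and 167 CPM (-2.11). NCU03118, NCU04130 and NCU04039 had fitted differences of -1.87, -1.80 and -1.66. All of them except NCU05707 still separated leucine from both other media in the mutant, NCU03118 by the least (0.77 over Avicel, adjusted p = 0.00953, and 0.50 with adjusted p = 0.112 without Δ*clr-5* culture 1 on leucine).

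At the other end, NCU00175 (chromosome III from 2902308 to 2904375) was at 1098 and 983 CPM in WT and 3583 and 3539 CPM in Δ*clr-5* on leucine, a fitted difference of 1.52. On Avicel it was at 18.4 and 17.5 CPM in WT and 124 and 123 CPM in Δ*clr-5*, whereas on histidine the order turned, with 107 and 131 CPM in WT and 43.4 and 63.2 CPM in the mutant. NCU00176, its neighbour 2632 bp away, was at 29.1 and 24.6 CPM in WT and 96.5 and 76.0 CPM in Δ*clr-5* on leucine (1.43), and 4.29 CPM or below elsewhere. The products of both are hypothetical proteins. Neither gene had overlapping cultures between the strains on leucine. NCU07823 was also higher in the mutant, at 88.0 and 105 CPM against 41.0 and 43.1 CPM in WT.

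In Δ*clr-5*, 11 members were called higher on leucine than on histidine but not than on Avicel. One was *tnr-1*, and the other 10, described here as a set because they were also called lower on histidine than on Avicel, included NCU04276, NCU01871 and NCU04169. For 8 of these 10 the mean on Avicel was more than 3 times that of WT. The Δ*clr-5* libraries on Avicel took part in defining this set, which favours genes high there, so this count is a description. The calls of NCU02623 and NCU07257 on leucine over histidine were lost without either Δ*clr-5* culture on histidine or culture 1 on leucine (1.32 with adjusted p = 0.184 and 1.5 with adjusted p = 0.179 for the last), and the call of NCU02623 on histidine below Avicel (-2.48) was lost without Δ*clr-5* culture 1 on Avicel (-0.86, adjusted p = 0.403) or either culture on histidine. The latter call of NCU00915 was lost without culture 1 on histidine (-1.19, adjusted p = 0.0522). Of all members, 20 had a mutant mean more than 3 times that of WT on Avicel (4.27% of tested genes) and 6 on histidine (1.84%). The WT means on these media took part in choosing the members, which favours genes low there. These ratios are thus a description and were not tested. NCU04276 (chromosome V from 5467674 to 5469105) was at 9.45 and 183 CPM on Avicel, 30.2 and 36.5 CPM on histidine, and 796 and 1271 CPM on leucine in WT. In Δ*clr-5* it was at 2828 and 1386 CPM on Avicel, 39.2 and 46.8 CPM on histidine, and 2258 and 1229 CPM on leucine, so its mutant cultures on Avicel overlapped those on leucine.

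NCU01871 was at 15.4 and 77.3 CPM on Avicel in WT and at 2174 and 747 CPM in Δ*clr-5*, against 2396 and 921 CPM on leucine in the mutant. NCU16673, NCU07352 and NCU07257 had the same form, with Avicel cultures of Δ*clr-5* at 1036 and 261, at 385 and 135, and at 674 and 117 CPM. NCU04169 was the extreme case against histidine, at 2087 and 1466 CPM on leucine, 1507 and 394 CPM on Avicel, and 3.99 and 5.13 CPM on histidine in Δ*clr-5* (-8.11 on histidine against Avicel, standard error 0.70, adjusted p = 8.06e-06). In WT it was at 2383 and 2214 CPM on leucine, 388 and 354 CPM on Avicel, and 6.39 and 6.04 CPM on histidine, the same order with a clearer step from Avicel to leucine.

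These levels on Avicel rest on cultures that disagreed. Of the 89 members, 25 differed by more than 2 times (CPM plus 1) between the Δ*clr-5* cultures on Avicel (8.36% of tested genes). Between the WT cultures, 8 differed on Avicel (1.08%) and 1 on histidine (1.12%), and between those of Δ*clr-5* on leucine 6 differed (0.97%). The other groups had 0. All but NCU01147 of those 8, and all of those 6, belonged to the set of 10, so these genes also varied between cultures in WT. All 10 genes of the set were higher in culture 1 than in culture 2 of Δ*clr-5*, on Avicel and on leucine. In WT on Avicel, 9 of them were higher in culture 2. Without Δ*clr-5* culture 1 on Avicel, NCU04169 and NCU00915 were called higher on leucine (2.06 and 1.46), whereas NCU01871, NCU04276, NCU16673 and NCU07352 only changed sign, to 1.04, 0.22, 0.84 and 0.67, none past the test. NCU07257 was called lower on leucine than on Avicel at -2.83 without Δ*clr-5* culture 2 on Avicel and -3.68 without Δ*clr-5* culture 1 on leucine, against -2.04 (adjusted p = 0.0857) with all libraries and -0.13 (adjusted p = 0.929) without Δ*clr-5* culture 1 on Avicel.

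On histidine the members went both ways. In Δ*clr-5*, 20 members were higher on histidine than on Avicel (27.2% of tested genes) and 38 were lower (27.6%). The former share was below that of all tested genes and the latter above it, and the members' median was -0.32. NCU05707, with counts near 0, is 1 of the 20 (4.15, adjusted p = 0.0342), a call that was lost with DESeq2 (3.40). Scaling by library size alone gave 28 higher and 27 lower, so the split depends on the scaling, and without Δ*clr-5* culture 2 on histidine it was 14 and 29. In WT, 18 members had a mean on histidine more than 3 times that on Avicel (13.8% of tested genes), among them *acu-3*, *acu-9*, NCU02127, NCU04292, NCU04583 and NCU09116. Both of these WT means took part in choosing the members, so that count is a description. Of these 18, 12 were called higher on histidine than on Avicel in Δ*clr-5*. NCU09116 was at 123 and 161 CPM on histidine and 23.1 and 22.4 CPM on Avicel in WT, and at 180 and 170 CPM and 20 and 34.9 CPM in the mutant (2.34, adjusted p = 5.86e-06).

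When the thresholds were applied to the Δ*clr-5* columns in place of the WT columns, 56 genes passed. They included 31 of the 89 members, or 34.8% of the WT set and 55.4% of the mutant set. Of the 58 members that did not pass in the mutant, 18 fell short of 6 times Avicel only, 15 of 6 times histidine only and 25 of both, and 7 of them were also under 20 CPM. Among the amino acid and purine genes *arg-10* alone passed, although all 11 were called higher in both comparisons. The 25 genes that passed in the mutant but not in WT were led by *mfa-1*. For 12 of the 25 only the WT fold over histidine was too small, as for NCU02126, annotated as isovaleryl-CoA dehydrogenase, with WT means of 94.6 CPM on histidine and 390 CPM on leucine.

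Of 5 genes listed for leucine catabolism, NCU02127 alone was a member. In Δ*clr-5*, 4 were higher on leucine than on Avicel (19.5% of all tested genes), and the list's median log2 fold change was 5.17. Over histidine, 5 were higher (29.4% of all tested genes). NCU00591, for the alpha subunit of methylcrotonoyl-CoA carboxylase, was at 1435 and 1114 CPM in WT and 1887 and 2118 CPM in Δ*clr-5* on leucine. It was at 456 and 687 CPM on histidine in WT, too high for membership. Its response over Avicel in Δ*clr-5* was 5.17, or 4.55 and 6.29 without culture 1 or 2 on Avicel. NCU02126 was at 457 and 322 CPM in WT and 690 and 917 CPM in Δ*clr-5* on leucine. NCU00792, for the branched-chain aminotransferase, was at 152 and 200 CPM in WT and 73.6 and 70.1 CPM in the mutant on leucine, and did not differ from Avicel past the test in the mutant (-0.09, adjusted p = 0.811). NCU06881, which the study also names as an aminotransferase, was at 246 and 199 CPM in WT and 133 and 138 CPM in Δ*clr-5* on leucine. Unlike NCU00792, it was called higher on leucine than on Avicel in the mutant (0.71, adjusted p = 0.0177). By CPM both Δ*clr-5* cultures were thus above both WT cultures for the carboxylase and dehydrogenase genes. For NCU00792 and NCU06881 they were below.

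Of 7 symbols for branched-chain amino acid synthesis, 4 matched a gene and none was a member. In Δ*clr-5*, *leu-4*, for isopropylmalate synthase, was the 1 gene higher on leucine than on Avicel (19.5% of all tested genes). It was at 759 and 859 CPM in WT and 337 and 316 CPM in the mutant on leucine. Without Δ*clr-5* culture 1 on Avicel, *leu-1* and *leu-2* were also called higher (1.21 and 1.64), and without culture 2 *leu-2* and *ilv-2* were called lower (-0.87 and -1.29). *leu-1*, *leu-4* and *ilv-2* were higher on leucine than on histidine (29.4% of all tested genes). Among 11 amino acid permease and oxidase genes, 6 were higher and 1 was lower on leucine than on Avicel in the mutant (19.5% and 17.8% of all tested genes). Over histidine, 4 were higher and 2 lower, near the 29.4% and 23.6% of all tested genes. The neutral amino acid permease gene *mtr* was at 267 and 309 CPM on leucine and 1843 and 2113 CPM on histidine in Δ*clr-5*, and none of these 11 was a member. The list of nitrogen regulation and ammonium assimilation held 9 genes. On leucine against Avicel, 2 were higher (*gdh-1* and *nit-4*) and 1 was lower (*nit-6*, for nitrite reductase), near the 19.5% and 17.8% of all tested genes. Without Δ*clr-5* culture 1 on Avicel, *en(am)-2* was at 1.51 over Avicel, against 0.81 with all libraries. Without culture 2, *nit-2* was at -0.50, against -0.18 with all libraries. Over histidine, 5 were higher and 2 lower (29.4% and 23.6% of all tested genes). Both genes listed for propionate use, NCU00680 and NCU01417, were higher on leucine in both comparisons (10.3% of all tested genes). They were at 4.72 and 0.75 over Avicel.

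The members were spread over all 7 chromosomes, from 7 on chromosomes II and III to 24 on chromosome I. The shares on each chromosome were 7.87% to 27.0% of the members against 10.2% to 24.1% of all genes, and the median gene span was 2109 bp against 2129 bp for all genes. In 3 places adjacent genes of the table were both members: NCU00175 and NCU00176 on chromosome III, *pdx-2* and *pdx-1* on chromosome IV, and NCU04169 and NCU04170 on chromosome V. Each pair kept a common order of the strains on leucine. NCU00175 and NCU00176 were both higher in Δ*clr-5*, *pdx-2* and *pdx-1* were both lower, and NCU04169 and NCU04170 had fitted differences of -0.62 and -0.27, the latter with overlapping cultures. Promoter and protein sequences of the members were not analysed here.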

How the data were processed

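The authors deposited 1 table of raw read counts, with a row per gene and a column for each of 12 RNA-seq libraries. The submitters' processing notes name TopHat2 2.0.8b and HTSeq 0.13.5. The study's methods give a different TopHat version, and state that reads unique to 1 gene were counted. The strand setting was not given in the sources used here. CPM were counts divided by the column total. In edgeR 4.0.16 under R 4.3.3, filterByExpr kept 8805 of the 9730 genes. Counts were TMM-normalized (factors 0.780 to 1.19) and all libraries were fitted with the robust quasi-likelihood model by group (residual degrees of freedom 6, common BCV 0.174). p-values were adjusted by Benjamini-Hochberg over all tested genes. A call needed both an adjusted p below 0.05 and a log2 change of 0.5 in size, the study's thresholds, although its own tool was DESeq. Standard errors are the absolute log2 fold change over the square root of F. The fit was tested on simulated data. Exact intervals of ratios are Clopper-Pearson.

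The members, role groups and gene lists were chosen with earlier results of these data known. Role groups were set by symbol or product name after the values were seen and were given no test. Genes named are, by rule, the 10 highest on leucine in WT, the 10 largest and 5 smallest mutant responses over Avicel, the 10 lowest and 5 highest mutant to WT ratios on leucine, those nearest the thresholds, and every member with a symbol or product name. Other members were named after their values were seen. Symbols, coordinates and gene spans are from RefSeq (NC12 assembly) and matched all 89 loci, and product names are from the study's supplement. Alternatives were DESeq2 1.42.0, RLE, library size alone, no filter, only the mutant libraries, a replicate block, adjusted p alone, other thresholds for membership, and leaving out each library. The cultures of a group are described by the study as independent.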

Additional observations from a re-analysis of the deposited data

Results flagged for a closer look

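NCU00175 moved in opposite directions on histidine in the strains. On TMM-scaled CPM plus 1, the log2 ratio of histidine over Avicel was 2.13 in WT, with both histidine cultures above both Avicel cultures, and -1.54 in Δ*clr-5*, with both below. The difference between the strains was not tested, because the WT columns took part in choosing the gene. It was the only one of the 53 named members for which any pair of media was ordered oppositely in the strains without overlap. Groups of 2 cultures were too small to look for a single deviating culture.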

How the results depend on the processing

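The number of members was 96 with TMM-normalized CPM (79 of them among the 89), 94 with no 1 CPM added, 133 at 4 times, 37 at 10 times, 96 at 10 CPM, 78 at 50 CPM, and 81 to 90 without 1 WT library. Members higher on leucine than on Avicel in Δ*clr-5* numbered 77 with DESeq2 and 74 to 79 with 1 library left out, and those higher than on histidine 85 with DESeq2 and 81 to 86. On histidine against Avicel, 14 to 22 were higher and 26 to 36 lower with 1 library left out. The replicate block gave 77, 85, 20 higher and 36 lower. Equal culture numbers did not mark shared deviations between most groups (2 of 15 correlations over 0.1, range -0.25 to 0.45), and cultures were not treated as pairs. The set of 10 genes described above was higher in culture 1 of Δ*clr-5* on both Avicel and leucine. Of the branched-chain synthesis genes, 2 were higher on leucine than on Avicel with library size alone, and 1 to 3 with 1 library left out.

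For the 53 named members, 987 of 1005 values of the response to leucine over Avicel under alternatives kept their direction and side of the threshold, 1 was weaker, 6 were stronger and 11 reversed. The reversals were in members that did not pass the test. NCU01871 was at 0.18 with library size alone. With 1 library left out, the range of these and of members that gained a call was -0.97 to 1.04 for NCU01871, -1.82 to 0.84 for NCU16673, -1.57 to 0.67 for NCU07352, -1.07 to 0.22 for NCU04276, -0.059 to 2.06 for NCU04169, -3.68 to -0.13 for NCU07257, 0.25 to 1.46 for NCU00915, 0.11 to 2.26 for *tnr-1*, and -0.54 to 3.54 for *ccg-4*, whose fitted values rest on a few counts. NCU04170, called higher on leucine than on Avicel, lost that call without any 1 culture other than those of Δ*clr-5* on Avicel (adjusted p = 0.0539 to 0.198). The cause was not tested. *ccg-4* and NCU05707 could not be fitted with the mutant libraries alone because they did not pass the filter there. With 1 library left out, the lone culture of a group is assumed to vary like the other groups. With 2 cultures a group, p-values rest on a spread shared over all groups, and counts near 0 limit *ccg-4* and NCU05707.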
